A study of Canis lupus familiaris with 6 samples.

Results

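The oligoadenylate synthetases and protein kinase R were followed in transformed dog kidney cells grown alone or among neighbours that lacked the Ras oncoprotein. Probes were taken by the gene name that the array design gives them, for OAS1, OAS2, OAS3, OASL, EIF2AK2 and ZBP1. This gave 9 of 43603 non-control probes. They stand for 5 of the 6 genes named and of 34378 gene names in the design, since ZBP1 has no probe under that name, and for 6 distinct transcripts, since the 2 probes named OASL belong to neighbouring genes. Of the 9, 8 were well above background on all 6 arrays, and the OASL probe passed the filter on dim probes through mix culture alone. OAS2, OAS1 and OAS3 rose in mix culture, by about 8-fold for OAS2 and about 3-fold for OAS1 and OAS3. Of these, only OAS2 passed the test over all probes with each array left out in turn. OAS1 and OAS3 failed it without some arrays, and an OAS3 probe did not pass with all 6 (limma, adjusted p = 0.0523). The OASL transcript was at least 4.88-fold higher in mix culture, while its neighbour OASL2 differed by 1.20-fold, with overlapping groups, and was not called.

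MDCK, a line of epithelial cells from dog kidney, was the host of every sample. The profiled cells of both groups carried MDCK-pTR GFP-RasV12, a GFP-tagged active Ras that tetracycline induces, together with mCherry-β-catenin Δ131, a stabilised β-catenin (β-cat ΔN/RasV12 cells). They were cultured alone (single culture, 3 arrays) or with 10 MDCK mCherry-β-catenin Δ131 cells (β-cat ΔN cells), which lack RasV12, per β-cat ΔN/RasV12 cell (mix culture, 3 arrays). Both groups grew on collagen type I with tetracycline for 24 h. Total RNA of the cells sorted for GFP was then hybridised to Agilent canine arrays, in one colour. Nothing in the labels says whether the 3 samples of a group came from separate cultures, so p-values measure only the spread between these samples, which may be technical. The study asked which transcripts differ in β-cat ΔN/RasV12 cells when β-cat ΔN cells surround them.

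Long double-stranded RNA is a mark of viral replication and of some transcripts of the cell itself, and these proteins act when they meet it. OAS1, OAS2 and OAS3 bind it and join ATP into 2′-5′-linked oligoadenylates (2-5A), a second messenger of the antiviral response. Protein kinase R (PKR), the product of EIF2AK2, phosphorylates the translation factor eIF2 alpha and so slows protein synthesis. OASL carries ubiquitin-like domains and is known in human cells for enhancing signalling by RIG-I rather than for making 2-5A, and ZBP1 binds Z-form nucleic acids and can start necroptosis. All are textbook interferon-induced genes, also in epithelium.

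The probes are 60-mers, and those whose place in the gene bears on the results are given here with their positions on CanFam3.1. Letters in capitals are the stretch that the 2 probes of a gene share, 24 bases for OAS2 and 42 bases for OAS3. Each such pair therefore reads nearly the same place with both probes, numbered as in the figures.
OAS2 probe 1, chr26:10447645-10447704, plus strand: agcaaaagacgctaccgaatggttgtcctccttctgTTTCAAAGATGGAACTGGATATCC
OAS2 probe 2, chr26:10447681-10447740, plus strand: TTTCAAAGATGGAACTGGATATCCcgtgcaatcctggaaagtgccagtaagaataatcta
OAS3 probe 1, chr26:10418193-10418252, plus strand: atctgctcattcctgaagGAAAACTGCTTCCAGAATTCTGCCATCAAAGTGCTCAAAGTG
OAS3 probe 2, chr26:10418211-10419600, plus strand: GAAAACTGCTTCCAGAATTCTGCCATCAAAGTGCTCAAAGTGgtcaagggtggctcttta

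The probes of the remaining genes share no more than 8 bases in a row with any other probe of the set, so their signals were read from separate sequences. These carry no capitals.
OAS1 probe 1, chr26:10394078-10394957, plus strand: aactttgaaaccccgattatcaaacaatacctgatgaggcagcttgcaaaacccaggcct
OASL, chr26:16837862-16837921, minus strand: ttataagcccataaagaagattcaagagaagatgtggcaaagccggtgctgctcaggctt
EIF2AK2, chr17:29496260-29496319, minus strand: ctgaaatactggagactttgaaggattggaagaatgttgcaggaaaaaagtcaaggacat

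OAS1 probe 1 covers a span of 880 bases and OAS3 probe 2 a span of 1390 bases, each with 60 bases of probe, so both cross at least 1 intron. OAS1 probe 2 lies at chr26:10395454-10395513, plus strand, further along the same transcript. In the RefSeq table of the dog assembly UU_Cfam_GSD_1.0 the order of genes is OAS1, OAS3, OAS2, between RPH3A and DTX1. OASL and the second gene probed under that name, listed there as LOC477518 with the synonym OASL2, follow each other elsewhere on the same chromosome. The OASL2 probe lies at chr26:16855413-16855472, minus strand. Whether each probe falls in coding sequence or in a UTR was not analysed here.

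Between 61.1% and 65.7% of spots on an array were well above background. Slide 1 held replicate 1 of both groups, and slide 2 held replicates 2 and 3 of both. Values below are normalised log2 signals, in log2 units from the 75th percentile of the array, and a change is the mix culture mean minus the single culture mean. A change was called at an adjusted p under 0.05 in limma, fitted over 26623 probes. Of the 5 epithelial markers with a probe, all were well above background on all arrays. Of other cell types, 3 of 5 leukocyte, 1 of 4 fibroblast and 2 of 3 endothelial markers were above it on all arrays. PTPRC, which defines leukocytes, and the fibroblast markers COL3A1 and DCN were above it on none, ITGAM and CDH5 were on 1 mix culture array each, and no marker of any list was called. With the slide as a block, CDH1 (E-cadherin) passed as lower (change -0.47, adjusted p = 0.0444). The HRAS probe had 6.42 ± 0.43 (SD, n = 3) in single culture and 5.79 ± 0.36 in mix culture (limma, adjusted p = 0.608), and the CTNNB1 probe had 6.20 ± 0.31 and 6.46 ± 0.37 (adjusted p = 0.889). The part of the HRAS level in the other values was not tested. These arrays hold sorted populations, in which fewer responding cells and less RNA per cell cannot be told apart.

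Of the 8 probes well above background on all 6 arrays, 5 were called higher in mix culture and 0 lower by limma, where 0.815% of all probes tested were called higher and 0.883% were called in either direction. Fitted among such probes alone, the same number was called, where 0.504% of 25613 probes were called higher. The OASL probe was called too, which makes 6 of 9, but it could enter the test only where it was high. The median change of the 8 was 1.61, against -0.05 over all probes tested, and their changes ran from 0.26 to 3.02. For 7 of the 8 the lowest mix culture array lay above the highest single culture array, which held for 7.85% of all probes. With the slide as a block in the fit, 7 of the 8 were called higher, where 3.98% of all probes were. The median change was 1.70 on slide 1 and 1.57 on slide 2.

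**Figure D1:**
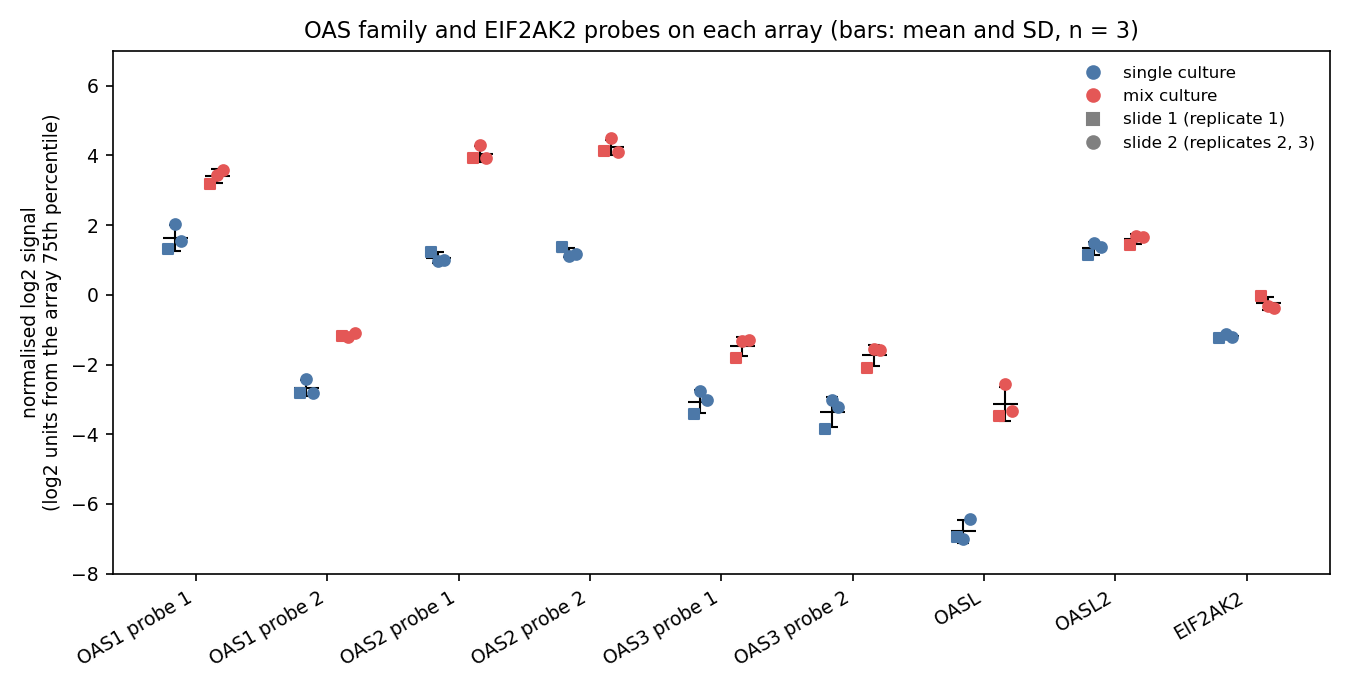
Normalised log2 signal (vertical axis, log2 units from the 75th percentile of the array) of the 9 probes on each of the 6 arrays, blue for single culture and red for mix culture, squares for slide 1 and circles for slide 2, with mean and SD of 3 arrays. The groups are apart for every probe but OASL2, and levels of different probes are not comparable.

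OAS2, which makes 2-5A with a pair of fused catalytic units, of which the C-terminal one is active, had the largest change among the probes measured above background in both groups. Probe 1 read 1.24, 0.96 and 0.99 in single culture replicates 1 to 3 and 3.91, 4.29 and 3.91 in mix culture. Probe 2 read 1.37, 1.12 and 1.17 against 4.12, 4.49 and 4.09. On both, each mix culture array stood more than 2.6 log2 units above the highest single culture array. The change was 2.98 (SE 0.18, 7.87-fold, limma, adjusted p = 0.000978) for probe 1 and 3.02 (SE 0.18, 8.09-fold, adjusted p = 0.000945) for probe 2. Both calls held with each array left out in turn, at adjusted p up to 0.0103. The change was larger on slide 2 (3.13 and 3.15) than on slide 1 (2.68 and 2.75). Probe 1 is printed on 5 spots, and these had an SD of 0.0077 to 0.047 within an array, below the SD of 0.15 and 0.22 between the arrays of a group.

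OAS1, a synthetase with 1 catalytic unit, rose on both probes, which lie apart in the transcript. Probe 1 read 1.32, 2.04 and 1.53 in single culture and 3.18, 3.44 and 3.58 in mix culture. Probe 2 read -2.82, -2.41 and -2.81 against -1.17, -1.22 and -1.10. The groups did not overlap on either, and single culture replicate 2 was the highest of its group on both. The change was 1.77 (SE 0.23, 3.40-fold, limma, adjusted p = 0.0175) for probe 1 and 1.52 (SE 0.17, 2.87-fold, adjusted p = 0.0101) for probe 2. Without single culture replicate 3, mix culture replicate 2 or mix culture replicate 3 the adjusted p was 0.121, 0.107 and 0.105 for probe 1 and 0.0787, 0.0641 and 0.0710 for probe 2. On the dimmer probe 2, normexp background correction gave a change of 0.71 (adjusted p = 0.0704).

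OAS3, the largest of the synthetases and the one with the highest affinity for long double-stranded RNA, had a similar change on overlapping probes, of which 1 was called. Probe 1 read -3.42, -2.76 and -3.02 in single culture and -1.80, -1.34 and -1.30 in mix culture, a change of 1.59 (SE 0.23, 3.0-fold, limma, adjusted p = 0.0307). Probe 2 read -3.85, -3.01 and -3.23 against -2.09, -1.55 and -1.58, a change of 1.62 (SE 0.27, 3.08-fold, adjusted p = 0.0523). In both groups the array of slide 1 was the lowest, and the groups did not overlap on either probe. With the slide as a block the adjusted p was 0.000181 for probe 1 and 0.000172 for probe 2, and with the replicate block 0.000513 and 0.000469. The 5 spots of probe 2 had an SD of 0.060 to 0.16 within an array, against 0.43 and 0.30 between the arrays of a group. The call of probe 1 was kept without mix culture replicate 1 and lost without any other array, at adjusted p of 0.0538 without single culture replicate 1, 0.0576 without replicate 2 and 0.162 without replicate 3, and of 0.169 and 0.16 without mix culture replicates 2 and 3. Probe 2 was called without mix culture replicate 1 (adjusted p = 0.0474). Normexp correction, whose offset of 50 is of the order of these intensities (14.3 to 71.6), gave changes of 0.65 and 0.57.

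In single culture, no array had the OASL probe well above background. In mix culture it was well above background on all 3. The readings were -6.94, -7.00 and -6.42 in single culture, equal to intensities of 1.67, 1.30 and 2.01, and -3.47, -2.57 and -3.35 in mix culture, equal to 21.0, 30.4 and 15.8. Every mix culture array was thus above every single culture array. The level was at least 4.88-fold higher, counted from the lowest signal well above background on each single culture array, and the fitted change was 3.66 (limma, adjusted p = 0.00242). Since the probe passed the filter only through the group where it was high, that p supports nothing beyond the readings. Normexp correction, whose offset of 50 exceeds all these intensities, gave 0.42 (limma, adjusted p = 0.609).

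The OASL2 probe, on the neighbouring gene, behaved otherwise. It was bright on all arrays, at intensities of 449 to 626, and read 1.13, 1.49 and 1.38 in single culture and 1.43, 1.70 and 1.66 in mix culture. Mix culture replicate 1, on slide 1, lay below single culture replicate 2, on slide 2, so the groups overlapped. Within slides the change was 0.30 on slide 1 and 0.24 on slide 2. The change was 0.26 (SE 0.17, 1.20-fold, limma, adjusted p = 0.790). On each array the OASL reading minus the OASL2 reading was -8.49 to -7.81 in single culture and -5.0 to -4.27 in mix culture. The fitted changes of the neighbours differed by 3.40, in a pair set against each other after the values were seen. The differences did not overlap between groups (exact permutation test, two-sided, p = 0.1, the smallest that 3 against 3 arrays allow). OASL was below background in single culture and passed the filter only through mix culture. The 3.40 thus depends on readings that are only bounds, and neither it nor that p supports anything beyond the readings.

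EIF2AK2 (PKR) had a smaller fitted change than the called synthetases. It read -1.23, -1.12 and -1.22 in single culture, with an SD of 0.058, and -0.03, -0.31 and -0.38 in mix culture. The groups did not overlap, and the array of slide 1 was the highest of the mix cultures. The change was 0.95 (SE 0.16, 1.93-fold) and did not pass the test over all probes (limma, adjusted p = 0.0559), at 0.0511 to 0.306 under the alternatives that did not pass either. It passed with the slide as a block (adjusted p = 0.00329) and with the replicate block (0.00745). The change was 1.20 on slide 1 and 0.83 on slide 2.

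**Figure D2:**
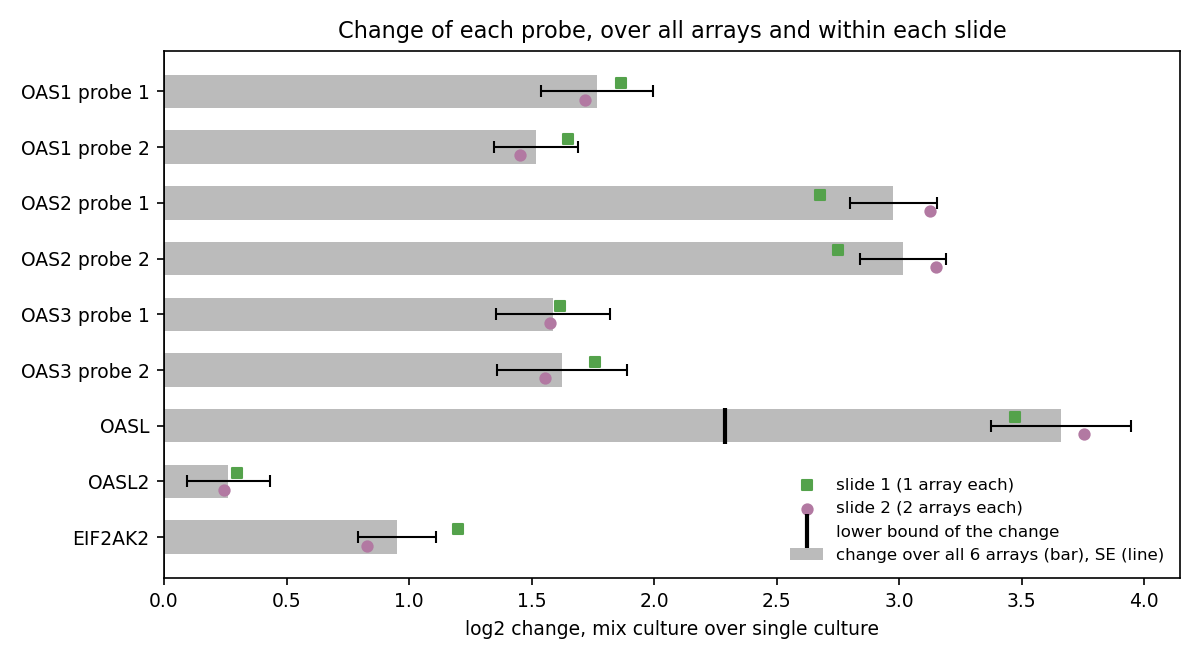
Log2 change of mix culture over single culture (horizontal axis) of each probe, with bars for all 6 arrays, lines for the SE, green squares for slide 1 and purple circles for slide 2. All changes are above 0 on both slides, and the black tick marks the lower bound for OASL, whose bar is the fitted value.

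**Figure D3:**
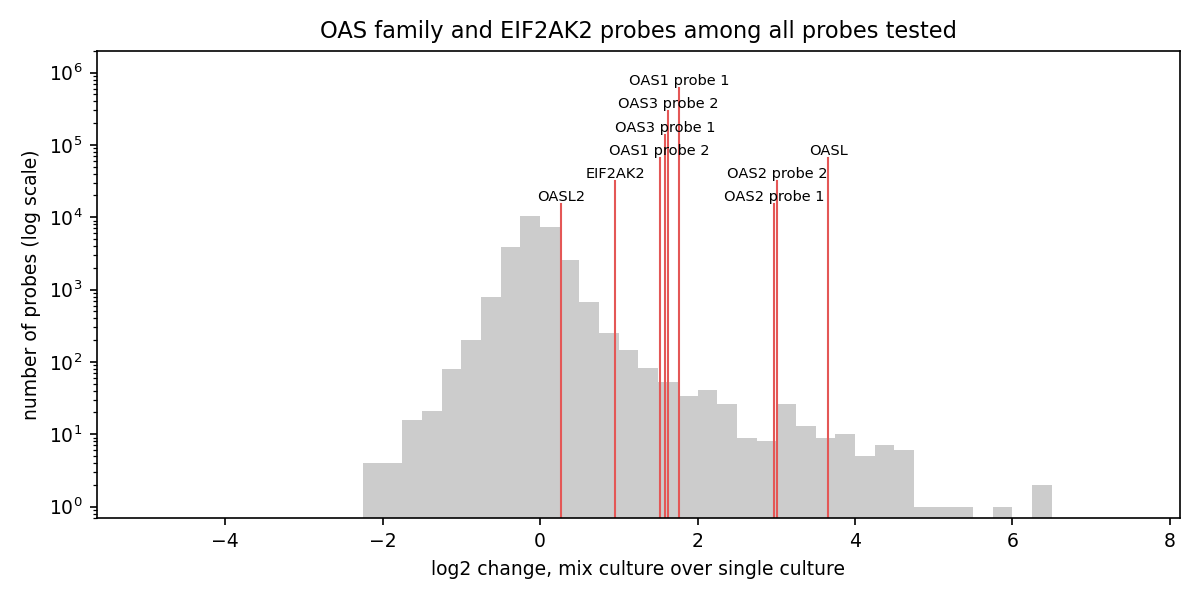
Number of probes (vertical axis, log scale) by log2 change of mix culture over single culture, for the 26623 probes tested, with red lines at the 9 probes. All but OASL2 and EIF2AK2 lie at a change of 1.52 or more, and the line for OASL is its fitted value.

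The genes were then set against each other, since a difference between 2 probes stays the same when all log2 values of an array are shifted equally. It can still vary with other normalisations and with background correction. The brightest probe of each symbol was used, which for OASL is the OASL2 probe, and 10 pairs were compared. In 8 pairs the per-array differences of the groups did not overlap (exact permutation test, two-sided, p = 0.1, the smallest possible here, 0.125 after Benjamini-Hochberg adjustment over the pairs). The change of OAS2 exceeded that of OAS3 by 1.43, that of OAS1 by 1.25 and that of EIF2AK2 by 2.06. OAS1 exceeded EIF2AK2 by 0.82. The changes of OAS1 and OAS3 differed by 0.18 and those of OAS3 and EIF2AK2 by 0.64, and in these pairs the groups overlapped (exact p = 0.2, adjusted 0.2). Among these probes OAS2 thus came first in order of change, OAS1 and OAS3 followed without separating, and EIF2AK2 did not separate from OAS3. The OASL probe has no place in this order, since its change is known only as a lower bound of 4.88-fold, below the fold of OAS2, and as a fitted value above it. No pair could pass a threshold of 0.05 with 3 arrays a group.

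ZBP1 gave no measured level. The design describes 2 probes of 1 transcript as Z-DNA binding protein 1, which the choice by gene name left out, and neither was well above background on any of the 6 arrays. Their intensities were 0.94 to 1.38 in both groups. Of the genes that pass its signal on to cell death, CASP8 had the only probe found by name, with a change of 0.17 (limma, adjusted p = 0.964).

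Genes around these effectors were described through 7 lists, of which 38 of 53 genes had a probe and were tested. Of the 38, limma called 4 higher and 0 lower, where 0.815% of all probes tested were called higher and 0.883% in either direction. An unadjusted p under 0.05 was found for 11 of the 38, where 8.71% of all probes had one. The median change over the 38 was -0.01. All 4 were among the 7 other double-stranded RNA sensors and editors tested. DHX58 (LGP2), a helicase related to RIG-I, had a fitted change of 3.54 (limma, adjusted p = 0.0450). With single culture arrays set to no less than the lowest signal well above background, the fold between group means was 8.38. The lowest mix culture array lay 1.83 log2 units above the highest single culture array. DDX58 (RIG-I) rose by 2.22 (4.67-fold, adjusted p = 0.00895) and IFIH1 (MDA5) by 1.44 (2.72-fold, adjusted p = 0.0055). DHX58 was well above background on 1 of the 3 single culture arrays and so passed the filter through mix culture alone. Its p therefore supports nothing beyond the readings. When probes had to be well above background on all 6 arrays, 3 genes of the lists were called. TLR3, the endosomal receptor for double-stranded RNA, rose by 1.26 (2.39-fold, adjusted p = 0.0140). The study chose DDX58 and TLR3 on these samples, so the count is not independent evidence, and TLR3 is named here after its values were seen. The other 3, namely MAVS, DICER1 and STAU1, had changes of -0.27 to 0.07. Without single culture replicate 3 limma called 0 of the 38, with 10 at an unadjusted p under 0.05, and without mix culture replicate 2 or 3 it called 1, IFIH1. In 2-5A turnover, PDE12, a phosphodiesterase that degrades 2-5A, had a change of -0.04 and ABCE1, an ATPase of ribosome recycling, -0.24 (limma, adjusted p = 0.983 and 0.813), and neither had an unadjusted p under 0.05.

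The partners and substrate of PKR gave no call without a block, and 1 with the slide as a block, EIF2S2, a subunit of eIF2 (change -0.43, adjusted p = 0.0426). Among 11 tested regulators and subunits of eIF2 and eIF2B, limma called 0, with 0 at an unadjusted p under 0.05, and the changes ran from -0.43 to 0.06 with a median of -0.05. EIF2S1, which encodes eIF2 alpha, had a change of 0.02, PRKRA, the activator PACT, -0.0001, and DNAJC3, the inhibitor P58IPK, 0.06. The other eIF2 alpha kinases, EIF2AK1, EIF2AK3 and EIF2AK4, had changes of 0.12, 0.54 and 0.23, with 0 called and 1 at an unadjusted p under 0.05.

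ATF4, the transcription factor whose translation increases when eIF2 alpha is phosphorylated, and its targets had a median change of -0.41 over 10 genes tested. Limma called 0 of them, with 5 at an unadjusted p under 0.05. With the slide as a block, 5 passed as lower, where 3.22% of all probes did, and 1 as higher. Named after their values were seen, the lower ones were TRIB3 (-0.90), a pseudokinase that represses ATF4, DDIT4 (-0.88), an inhibitor of mTORC1, SLC7A11 (-0.82), a cystine transporter, PSAT1 (-0.73), of serine synthesis, and SHMT2 (-0.50), of mitochondrial folate metabolism. The higher one was ATF3 (0.96), a factor induced by many stresses. DDIT3 (CHOP), the proapoptotic factor of this response, had a change of 0.32 (limma with the slide block, adjusted p = 0.116). The brightest ATF4 probe did not pass in that fit (adjusted p = 0.139), while 1 of the 3 ATF4 probes tested did.

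The factors that carry the interferon signal to these genes were measured only in part. By name, 4 of 9 had a probe, and limma called 0, with 1 at an unadjusted p under 0.05. STAT2, a subunit of the factor ISGF3, had a change of 0.66 (limma, adjusted p = 0.323, 0.00695 with the slide as a block). IRF9, its DNA-binding partner, had -0.13 on its brightest probe, which did not pass with the slide as a block (limma, adjusted p = 0.530). Of the 2 IRF9 probes tested, 1 passed with that block. IRF1 and JAK1 had 0.18 and -0.23. Over all 7 lists, 6 genes of 38 passed as higher and 6 as lower with the slide as a block, where 3.98% and 3.22% of all probes did, and 11 passed in either direction with the replicate block.

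**Figure D4:**
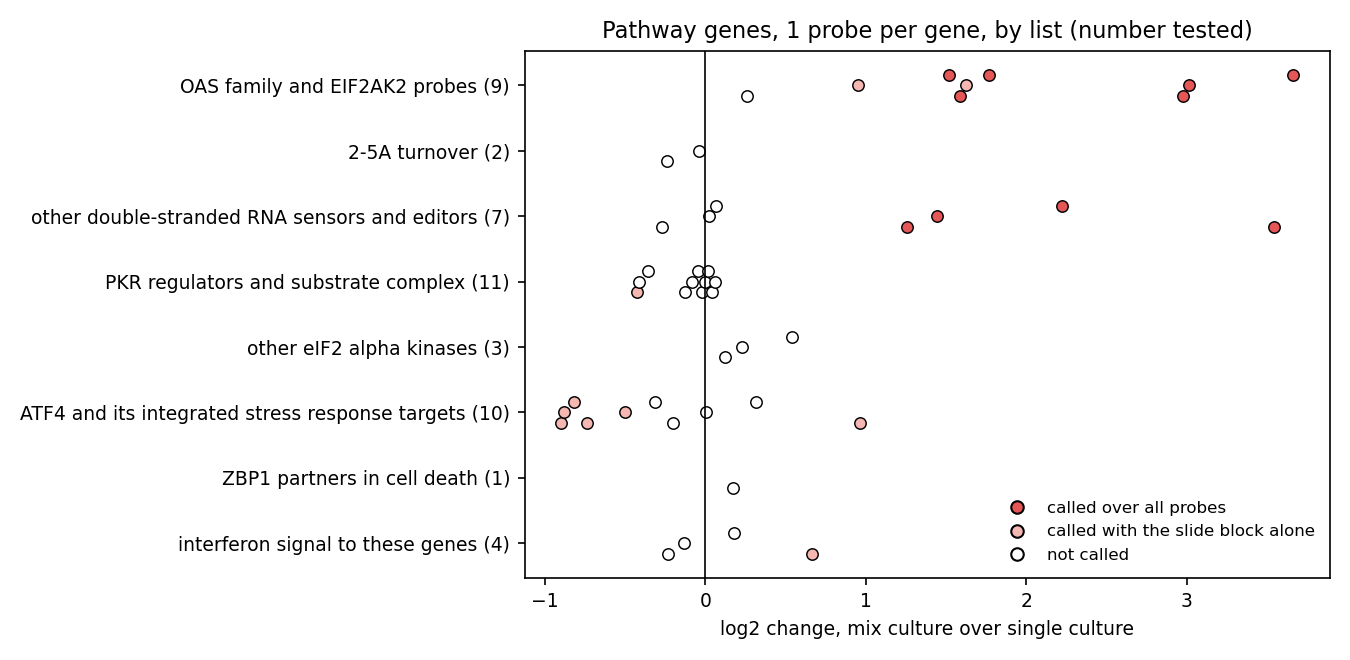
Log2 change of mix culture over single culture (horizontal axis) for the 9 probes and for the genes of 7 lists, 1 probe per gene, with the number tested in brackets. Red points were called over all probes, pink points with the slide as a block alone, and white points in neither, and the red points of the lists are all among the other sensors.

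Genes whose pattern over the 6 arrays was most like the mean of the 8 probes above background on every array were sought among 2722 genes. They were PARP14, an ADP-ribosyltransferase (Pearson r = 0.998), MX2, an interferon-induced GTPase (0.998), CIITA, the master regulator of MHC class II genes (0.994), FAM13C (0.993) and IFIT1, which binds viral RNA ends (0.992). Their changes were 1.73, 4.68, 2.34, 2.32 and 3.91. These correlations describe 6 arrays that share the step between the cultures, so that they rank genes by likeness and test nothing.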

How the data were processed

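RNA of 3 single culture samples and 3 mix culture samples was measured, with groups and replicate numbers from the sample titles. The authors deposited 1 scanner file for each array, holding spot intensities from which Agilent Feature Extraction had subtracted the background (11.5.1.1 on slide 1, 12.1.1.1 on slide 2, per the file headers), and a table of log2 values centred per slide, used as an alternative. In that deposited log2 table, columns of replicates 2 and 3 in mix culture matched the scanner file of the other (r = 0.999 and 0.993), which leaves the groups unchanged. The log2 intensity, averaged over the spots of a probe, had the 75th percentile over probes of its array subtracted. Probes without outlier flags that were well above background throughout at least 1 group were tested with limma 3.58.1 in R 4.3.3 (two-sided, Benjamini-Hochberg), as tested on simulated data. For a probe below background in 1 group, the bound took the higher of its own signal and the lowest signal well above background on each array. The number of arrays limits the precision. Lists used the brightest probe per symbol, and 2 genes planned for them are not reported here.

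The members and lists were chosen with earlier results of these data known. The rule named all their probes, at most 3 called genes per list, the 5 most alike genes, HRAS and CTNNB1, and other genes of the lists were named after their values were seen. Same-numbered arrays deviated together from their group means (r = 0.801, 0.530 and 0.572). Arrays of slide 2 with different numbers did so no less (0.632 and 0.610), so pairing by number cannot be told from sharing a slide. The main fit used no pairing, and the number served as a block only among the alternatives. Alternatives covered scaling, background correction, filter, slide, pairing, source of values, test, probe averaging and left-out arrays. The authors stated no normalisation in the sources used here.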

Additional observations from a re-analysis of the deposited data

How the results depend on the processing

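No probe of the set changed direction under any alternative run. Of 161 probe values under alternatives, 127 kept their side of the threshold, 20 lost a call and 14 gained one. They include probe averaging, where each probe carries the mean of its symbol. There OASL2 gained a call as the mean of OASL and OASL2 (change 1.96, limma, adjusted p = 0.00835). The 6 probes called, OASL included, were 5 among probes well above background throughout. They became 3 after normexp on the median spot signal, which holds both OAS2 probes, and 0 by the methods' test. That is the unpaired two-tailed Student test named in the study, run here on the values and filter of the main fit. The study names no method of correction, and Benjamini-Hochberg adjustment was chosen here. By this test 8 had an unadjusted p under 0.05 and the lowest adjusted p was 0.0644. Leaving out 1 array gave 3 to 7. The slide block, slide 2 alone and the replicate block each called 8, the latter also with mix culture replicates 2 and 3 exchanged. The authors' table, already centred within slides, called 9, OASL2 included (limma, adjusted p = 0.0476). With the slide block OASL2 was not called (adjusted p = 0.152). Averaging the probes of a symbol joins OASL with OASL2 and called 4 of 5 symbols. Of all probes, 235 were called. The count was 100 with normexp, 143 when a probe had to be well above background throughout, 1917 with the slide block, 999 with slide 2 alone, 1399 with the replicate block, 1446 with the exchanged replicate block, 4077 in the authors' table, 8 by the methods' test and 92 to 247 with 1 array left out. Of calls, 92.3% were higher in the fit without a block, 55.3% with the slide block and 47.8% in the authors' table, which centres within slides. Of pathway genes, 4 were called, against 2 with normexp, 12 with the slide block, 7 on slide 2 alone, 11 with the replicate block, 8 with the exchanged replicate block, 14 in the authors' table, 1 by the methods' test and 0 to 4 with 1 array left out. The pairs that did not overlap numbered 7 to 10 over the alternatives. The cause of these shifts was not tested. Signals near background, as of OASL in single culture, limit folds to bounds.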

Other observations

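A further probe outside the choice by gene name is described as OASL and assigned to another transcript, at chr26:16827078-16827137 on the minus strand of CanFam3.1. It was well above background on all 6 arrays and read -2.73, -2.44 and -2.59 in single culture and -2.50, -2.06 and -2.16 in mix culture. Its change of 0.34 did not pass the test (limma, adjusted p = 0.714), and its groups overlapped. Which gene it reads was not settled here, so that it was set against neither OASL nor OASL2.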
